A study of Mus musculus with 66 samples.

Results

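Of 94469 genomic regions in which a peak had been called in mouse small intestinal organoids, 1260 (1.33%) were open in the ENR and EN cultures and much less so in the CV culture, and these 1260 regions are described here. They were chosen on ATAC-seq, which measures how readily a transposase cuts the DNA of a region and so how accessible its chromatin is. Every ENR and every EN library had to score above every CV library, the mean ENR score had to reach 8, the mean ENR score plus 1 had to be at least 2 times the mean CV score plus 1, and the mean EN score plus 1 had to be under 1.5 times the mean ENR score plus 1. The first condition left 5587 regions, the second 4378, the third 2023 and the fourth 1260. The score is the number of reads in a region after the authors normalized it between libraries. Because the ATAC scores chose the regions, the difference from CV is the rule itself and carries no test. The histone marks, the Hnf4g reads, the DNA sequence and the RNA of the nearest genes were not used to choose them.

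All organoids carried the Lgr5 GFPDTR/+ allele, a knock-in at a stem cell gene. ENR medium holds EGF, Noggin and 5% R-Spondin-1, the last a protein that strengthens Wnt signalling, and gives the standard culture with crypts and differentiated cells. CV organoids were grown in ENR with 3 µM CHIR99021, an inhibitor of the kinase GSK3 that activates Wnt signalling, and 1 mM valproic acid, an inhibitor of histone deacetylases, and the labels call this culture stem cell enriched. EN organoids were grown without R-Spondin-1, and the labels call them differentiated. CV therefore differs from the other cultures by both compounds at once, and the effects of the compounds and of the change in cell types cannot be told apart. EN differs from CV also by the lack of R-Spondin-1 and, per the study's methods, by a shorter time in its medium. These cannot be told apart either. ATAC-seq and RNA-seq had 4 libraries per culture and Hnf4g had 1. For H3K27ac, H3K4me3 and H3K27me3, the deposited scores cover 3 libraries per culture each. The labels list more histone libraries, which were not analysed here. The labels do not say whether replicates came from separate cultures, so p-values measure the spread between these samples, which may be technical. Each library is a bulk sample of mixed cells, in which more cells of a type and more signal per cell cannot be told apart. The ENR and EN differences from CV share the CV libraries and are given side by side.

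The intestinal epithelium is renewed by Wnt-dependent stem cells at the base of the crypt, whose progeny become enterocytes or secretory cells as they move toward the villus. Regions far from gene starts that open during this change commonly hold sites for transcription factors and, when active, carry acetylation of lysine 27 on histone H3 (H3K27ac). H3K4me3 marks active promoters, and H3K27me3 is laid down by the Polycomb complex on silent genes. Hnf4g is a nuclear receptor expressed in the small intestine that binds DNA at sites close to CAAAGTCCA.

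The 6 windows shown are those whose sequence the results refer to. They are 300 bases around the centre of a region, in mm9 coordinates and on the plus strand, except that near Treh, which stops before the annotated exon. The first 3 are all the regions, among the 8 with the largest rise and the regions nearest to listed marker genes, that held a match to CAAAGTNCA on either strand. The last 3, with an HNF4 match beside a fall in H3K27me3 and the TEAD matches of the 8 largest rises, were added after their values were seen. Capitals mark the HNF4 match in the first 4 and the TEAD match (ACATTCC or its complement GGAATGT) in the last 2.
Treh, chr9:44481159-44481315: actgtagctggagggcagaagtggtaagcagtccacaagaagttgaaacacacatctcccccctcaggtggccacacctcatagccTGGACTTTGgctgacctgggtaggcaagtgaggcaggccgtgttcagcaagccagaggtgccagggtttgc
Pcsk1, chr13:75361415-75361714: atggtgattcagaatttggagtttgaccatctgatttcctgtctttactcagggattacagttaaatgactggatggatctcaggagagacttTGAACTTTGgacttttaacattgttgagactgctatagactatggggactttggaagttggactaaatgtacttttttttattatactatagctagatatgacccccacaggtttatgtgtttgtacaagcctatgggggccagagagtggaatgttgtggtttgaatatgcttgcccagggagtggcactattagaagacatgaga
Bmp1, chr14:70900513-70900812: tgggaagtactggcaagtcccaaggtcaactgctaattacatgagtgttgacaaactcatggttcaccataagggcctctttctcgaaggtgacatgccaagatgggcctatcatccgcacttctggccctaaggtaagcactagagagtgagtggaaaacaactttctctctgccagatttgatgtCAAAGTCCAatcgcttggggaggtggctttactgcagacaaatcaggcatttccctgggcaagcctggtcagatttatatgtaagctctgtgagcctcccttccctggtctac
Dusp27, chr1:167998160-167998459: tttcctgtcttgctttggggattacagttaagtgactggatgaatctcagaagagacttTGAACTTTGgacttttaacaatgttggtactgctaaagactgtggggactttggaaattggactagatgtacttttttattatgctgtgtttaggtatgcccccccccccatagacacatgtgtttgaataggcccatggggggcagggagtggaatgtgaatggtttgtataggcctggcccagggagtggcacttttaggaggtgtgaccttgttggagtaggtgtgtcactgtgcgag
Tmem38b, chr4:54107269-54107568: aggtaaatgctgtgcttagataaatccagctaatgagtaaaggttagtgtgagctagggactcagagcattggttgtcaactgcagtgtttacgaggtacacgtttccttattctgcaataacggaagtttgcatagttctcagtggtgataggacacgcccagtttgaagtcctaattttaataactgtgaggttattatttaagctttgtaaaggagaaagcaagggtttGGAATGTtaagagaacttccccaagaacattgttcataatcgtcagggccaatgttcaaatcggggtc
Slco1b2, chr6:141539103-141539402: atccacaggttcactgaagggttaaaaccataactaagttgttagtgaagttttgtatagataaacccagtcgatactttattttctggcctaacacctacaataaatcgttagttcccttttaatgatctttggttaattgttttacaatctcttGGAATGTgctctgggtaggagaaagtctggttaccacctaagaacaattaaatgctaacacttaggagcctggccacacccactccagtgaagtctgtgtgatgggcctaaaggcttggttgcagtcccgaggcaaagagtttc

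The 1260 regions lay mostly away from gene starts. Only 54 (4.29%) were within 500 bp of an annotated start site, against 14.3% of all regions with an annotation. Another 687 (54.5%) were intergenic, against 42.2% of all, 472 (37.5%) were intronic and 47 (3.73%) were in exons. The median distance to the nearest start of a protein-coding gene was 27210 bp, against 14850 bp for all regions, and 817 regions (64.8%) had one within 50 kb. The median width was 352 bp, against 220 bp for all regions and 454 bp for the other regions with a mean ENR score of at least 8. A low share near start sites was not particular to the chosen regions, since it was 3.54% in those opened further in EN, defined below. The chosen regions were found on all 20 chromosomes listed, from 0.934% of the regions of chromosome 18 to 1.98% of those of chromosome 16.

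The median region scored 6.75 in CV, 20.8 in ENR and 21.6 in EN. Over these regions, single CV libraries had medians of 6 to 7, ENR libraries of 20.0 to 21.0 and EN libraries of 20.0 to 23.0. These regions took 0.728% to 0.770% of the summed score of a CV library, 1.97% to 2.11% of an ENR library and 1.72% to 2.05% of an EN library. Few of them were closed in CV in an absolute sense, since no region had a mean CV score of 0 and 179 (14.2%) had a mean under 3. The ratio of ENR to CV, with 1 added to each mean, ran from 2.00 to 11.9 with a median of 2.68, and 178 regions (14.1%) reached 4. That of EN to CV ran from 1.27 to 14.9 with a median of 2.76.

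Between ENR and EN the rule set only an upper limit. The mean EN score lay below the mean ENR score in 584 regions (46.3%) and above it in 664 (52.7%). Every EN library scored below every ENR library in 125 regions (9.92%, against 10.7% of all regions) and above in 51 (4.05%, against 10.3%, a share that the limit of 1.5 lowers by construction). The median ratio of EN to ENR was 1.03, and its lowest value was 0.293.

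The 8 regions with the largest ratio of ENR to CV were all intergenic, 14 to 599 kb from the nearest start site, and are named by the nearest gene. The region near Serpinb8, a gene for a serine protease inhibitor, had the largest ratio, 11.9. It scored 4, 2, 6 and 3 in CV, 49, 53, 72 and 49 in ENR and 48, 61, 92 and 78 in EN. The region near Bnc1, a zinc finger protein gene, scored 1, 3, 2 and 2 in CV, 38, 33, 32 and 33 in ENR and 17, 13, 22 and 16 in EN. It was thus open in both cultures, with every EN library under every ENR library. The region near Tmem38b, whose window holds a TEAD match, scored 12, 5, 5 and 7 in CV, 71, 71, 106 and 67 in ENR and 46, 54, 64 and 67 in EN. The region 38.8 kb from Slco1b2, a gene for a liver organic anion transporter, scored 4, 4, 3 and 2 in CV, 27, 28, 47 and 32 in ENR and 39, 24, 47 and 58 in EN, so that its ENR and EN libraries overlapped. Regions near Gm5745, Isx and Stc2 were highest in ENR. The region near Stc2, a gene for a secreted glycoprotein, had a mean of 4.75 ± 0.957 (SD, n = 4) in CV, 46.8 ± 6.02 in ENR and 14.2 ± 4.92 in EN. Near Isx, an intestinal homeobox gene, the region had 5.25 ± 1.5, 54.2 ± 4.11 and 23.5 ± 6.76 in the same order. The region near Gm5745 had the lowest ratio of EN to ENR of all 1260, with a mean of 2.25 ± 0.500 in CV, 28.0 ± 4.76 in ENR and 7.5 ± 2.38 in EN.

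**Figure D1:**
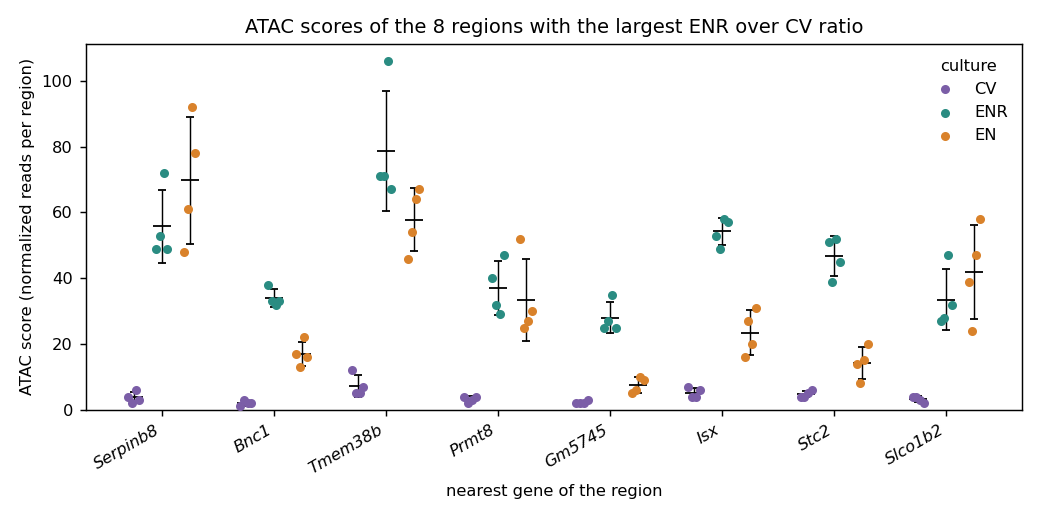
ATAC score (normalized reads per region) in each of 12 libraries for the 8 regions with the largest ratio of ENR to CV, named by nearest gene. Points are libraries, and bars give the mean and SD of 4 libraries. All CV libraries lie at or under 12, and the EN libraries near Bnc1, Gm5745, Isx and Stc2 lie under every ENR library.

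At the edge of the rule, regions near Tnfrsf11a, Itpkb and Klc1 were taken in with a mean ENR score of 8, and regions near Clvs2, Arid5b and Ikbke were left out at 7.75. For the ratio of ENR to CV, the regions near D10Wsu102e, Kitl and Helz were taken in at 2.00, and those near Itga1 (just under 2, or 2.00 as rounded) and Clmn (1.99) were left out. For the ratio of EN to ENR, regions near Zbtb20 and Stk24 were inside at 1.5 as rounded and that near Pth2r at 1.49, while those near Zfp366, Pcdh8 and Klf10 were just outside at 1.5 as rounded.

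The sequence of the regions was compared with that of all regions, as a description with no test. A match to the HNF4 letters CAAAGTNCA was found in 136 of the 1260 windows (10.8%), against 5.22% of 94340 windows over all regions. The share was 13.6% in the 5848 regions that opened further in EN, defined by every EN library above every CV library, a mean EN score of at least 8, and means plus 1 of at least 2 times CV and 1.5 times ENR, and 3.29% in 1520 regions that were open in CV and lower in both other cultures. The letters TTAATNATT, read by HNF1 homeodomain factors of intestine, liver and kidney, were in 5.79% of the regions, against 2.58% of all, 4.01% of those opened further in EN and 1.58% of those open in CV. The TEAD letters ACATTCC, read by the DNA-binding partners of the Yap and Taz coactivators, were in 9.68%, against 5.11% of all, 5.72% of those opened further in EN and 4.61% of those open in CV. The KLF letters CCACACCC were in 7.30%, against 4.98%, and the FOXA letters TGTTTAC in 7.14%, against 5.30%. Of all sets compared, the regions open in ENR and EN had the highest shares of HNF1, TEAD, KLF, FOXA and E-box matches, the last with the letters CAGCTG (22.4% against 18.7%). The HNF4 share was highest in the regions opened further in EN. So was that of the letters AGATAAG, read by zinc finger factors of the endoderm of the GATA family (9.92%, against 7.21% of all and 12.2% of those opened further in EN).

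Of the other letters, with promoters included, those for ETS, CDX, SOX and PRDM1 were also in a higher share than in all regions. Most others were in a lower one. The TCF/LEF letters CTTTGAT, read by the nuclear effectors of Wnt signalling, were in 5.63% of the regions, against 5.57% of all and 10.5% of those open in CV. The CDX letters CNATAAA were in 17.4% against 16.5%, the SOX letters CATTGTT in 4.68% against 4.39%, and the ETS letters AGGAAGT in 13.0% against 11.3%. The AP-1 letters TGANTCA were in 13.7%, against 17.2% of all and 31.3% of those open in CV. The CTCF letters AGGGGGC were in 3.33% against 6.83%, and the SP letters CCCGCCC in 6.03% against 10.2%. The RBPJ letters GTGGGAA were in 5.79% against 6.47%, the PRDM1 letters AAAGTGAAA in 1.03% against 0.872%, and the NF-kB letters GGAATTTCC in 0.238% against 0.344%. All 17 motifs were searched on both strands, and the letters of some overlap, as AGGGGGC and CCCGCCC do in runs of G and C. The median GC content was 48.7%, against 49.0% of all windows. Outside promoters the HNF4 share was 10.9% against 5.87%, the TEAD share 9.87% against 5.59% and the HNF1 share 5.72% against 2.90%. There the CDX share was 17.3% against 18.4%, the SOX share 4.64% against 4.83% and the TCF/LEF share 5.72% against 6.17%, no longer higher. The ETS share was 13.3% against 12.2% and the PRDM1 share 1.08% against 0.929%. The SP share was 5.31% against 6.48%, a smaller gap than with promoters. In the other regions with a mean ENR score of at least 8, also outside promoters, the HNF4 share was 7.33%, the TEAD share 6.03% and the HNF1 share 3.52%. Their KLF share was 6.60% and their FOXA share 6.49%, against 7.38% for each in the chosen regions. Their ETS share was 14.1%, above that of the chosen regions.

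**Figure D2:**
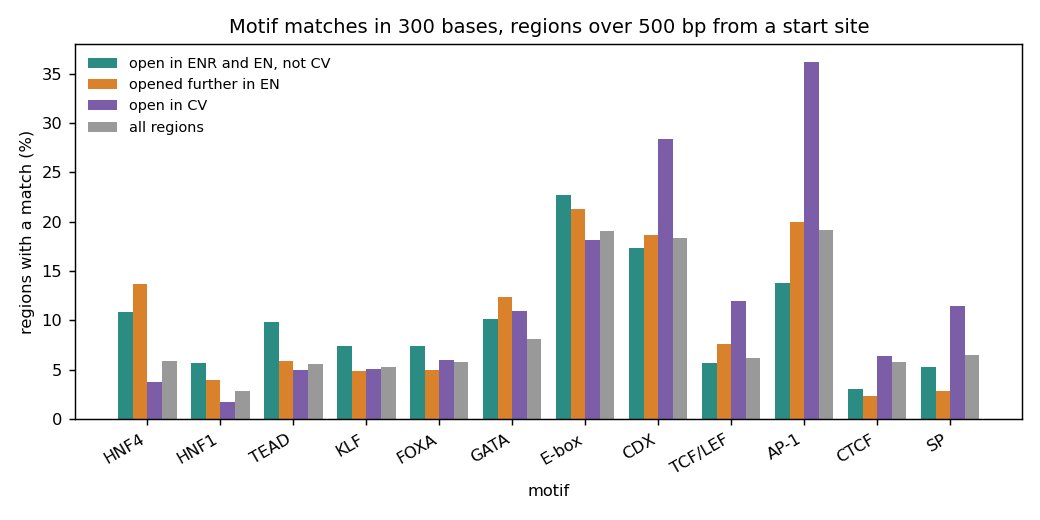
Share of regions (%) with a match to each motif in 300 bases, for regions over 500 bp from a start site, in 4 sets of regions. HNF1, TEAD, KLF and FOXA bars are highest for the regions open in ENR and EN, the HNF4 bar for those opened further in EN (13.7%), and the AP-1 bar for those open in CV (36.2%).

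Some of these windows were near copies of each other. The Pcsk1 and Dusp27 windows above, on different chromosomes, share the stretch around their HNF4 match. Windows were linked when they shared at least 5 words of 14 bases, a search chosen after the sequences had been seen. It joined 141 of the 1260 regions into 21 groups, of which the largest held 40, 31 and 29 regions and the fourth 5. The group of 40 holds the Slco1b2 region, lies on 16 chromosomes, has no region at a promoter, and 29 of its 40 windows held a TEAD match. The group of 31 holds the Pcsk1 region, and 10 of its windows held an HNF4 match and 10 a TEAD match. Of the group of 29, 11 held an E-box match. Outside the 3 groups, with 100 regions (7.94%) left out, the TEAD share was 6.90%, the HNF4 share 10.7%, the HNF1 share 5.43% and the E-box share 22.7% of 1160 regions.

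The copies were also counted beyond the chosen regions, with single windows as the bait. Of the other 1259 chosen regions, 30 (2.38%) shared at least 5 words with the Slco1b2 window, against 233 of 93080 regions outside the set (0.250%). The share was 0.702% in regions opened further in EN and 0 of 1520 in those open in CV. The 30 regions lay on 15 chromosomes and had median scores of 4.50 in CV, 16.6 in ENR and 18.1 in EN, and 25 of them held a TEAD match. The Pcsk1 window shared words with 13 of the other chosen regions (1.03%), against 416 outside the set (0.447%) and 1.34% of those opened further in EN. Reads that map to several copies can be placed wrongly, the authors kept reads with a mapping quality of at least 1, and the part of such reads in these scores was not tested.

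Reads from the Hnf4g ChIPmentation, an immunoprecipitation of chromatin with 1 library per culture and no replicate check, were counted over the regions. Of the reads in all regions, these regions held 1038 of 84340 (1.23%, 95% exact binomial interval 1.157% to 1.307%) in CV, 5840 of 352600 (1.66%, 1.614% to 1.699%) in ENR and 27238 of 1816497 (1.5%, 1.482% to 1.517%) in EN. They cover 1.39% of the bases of all regions, so that their density, in reads per kb at a total scaled to 1e6 reads in regions, was 23.8 in CV, 32.0 in ENR and 29.0 in EN, against 26.9 over all regions. Regions opened further in EN had 24.7, 24.5 and 34.9, and those open in CV had 19.9, 17.9 and 12.1. The ENR and CV intervals did not overlap, but they cover counting error only, since 1 library per culture gives no spread between libraries. The median region had 0 reads in CV, 2 in ENR and 12 in EN, against 0, 1 and 4 over all regions. No read was counted in CV in 879 regions (69.8%, against 74.2% of all regions). In ENR this held for 301 (23.9%, against 42.4%) and in EN for 66 (5.24%, against 17.4%), at library depths that differ as the totals show. The other regions with a mean ENR ATAC score of at least 8 had medians of 0, 3 and 17 reads. Of them, 59.4%, 22.0% and 5.03% had no read, and their densities were 28.2, 27.7 and 31.6. The chosen regions were thus not richer in Hnf4g reads in EN than those.

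In EN, the 136 regions with an HNF4 match had a median of 19.5 Hnf4g reads and the other 1124 a median of 11.0. The most reads in EN were in an intron of Cebpg, a gene for a bZIP transcription factor (11 in CV, 68 in ENR and 436 in EN), in an intron of Gcnt4, a glycosyltransferase gene (4, 28 and 409), and near Banf2 (2, 29 and 352). These are wide regions, of 2086, 2434 and 1084 bp, which raises their counts. The 8 regions with the largest ratio of ENR to CV held few, with 1 to 20 reads each in EN. The Treh, Pcsk1, Bmp1 and Dusp27 regions with the HNF4 matches shown above had 29, 82, 18 and 42 reads in EN and 9, 30, 7 and 4 in ENR.

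H3K27ac differed little between ENR and CV at these regions and was more often raised in EN. Scores of each mark were compared with limma on log2(score + 1) over all regions, at an adjusted p under 0.05. From CV to ENR, H3K27ac rose in 13 of 1260 regions (1.03%, against 1.29% of all regions tested) and fell in 1 (0.0794%, against 0.541%). The median log2 difference was -0.11, against -0.33 over all regions, and became 0.29 after quantile normalization. In the other regions with a mean ENR ATAC score of at least 8, H3K27ac rose in 3.23% and fell in 0.640%, both above the shares of the chosen regions. From CV to EN, it rose in 113 of the chosen regions (8.97%, against 5.07%) and fell in 7 (0.556%, against 1.96%), with a median of 0.32 against -0.14. The share that rose was 11.1% in the other 36709 regions with a mean ENR score of at least 8, so a share above the background was not particular to the chosen regions. From ENR to EN, it rose in 22 (1.75%, against 1.22%) and fell in 2 (0.159%, against 0.353%), with a median of 0.44 against 0.25. Leaving out ENR replicate 1 or ENR replicate 4 lowered the count from CV to ENR from 13 to 2, and leaving out EN replicate 4 lowered the count from CV to EN from 113 to 45.

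The 3 largest rises in H3K27ac from CV to ENR whose libraries did not overlap were near Ltbp2, Cep164 and Mme. In the intron of Ltbp2, a gene for a matrix protein, the scores were 2, 1 and 1 in CV, 15, 15 and 18 in ENR and 9, 8 and 7 in EN. The log2 difference was 2.89 from CV to ENR (adjusted p = 0.0044) and 1.97 from CV to EN (adjusted p = 0.032). In an intron of Cep164, a centriole gene, the scores were 2, 6 and 22 in CV and 54, 47 and 50 in ENR, a difference of 2.71 (adjusted p = 0.005). In the region 176 kb from Mme, the gene of the brush border peptidase neprilysin, they were 2, 1 and 6 in CV, 19, 14 and 20 in ENR and 31, 48 and 41 in EN. This region rose by 2.41 to ENR (adjusted p = 0.012) and by 3.54 to EN (adjusted p = 4.2e-05). The intron of Gcnt4, with many Hnf4g reads, had 131, 123 and 178 in CV, 303, 249 and 210 in ENR and 480, 371 and 530 in EN, rises of 0.82 (adjusted p = 0.0075) and 1.67 (adjusted p = 8.7e-08). The only fall called, in an exon of Tsc22d3, a glucocorticoid-induced leucine zipper gene, was from 12, 10 and 22 in CV to 1, 4 and 1 in ENR, with 21, 7 and 20 in EN.

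None of the 8 regions with the largest ATAC ratio was called in H3K27ac from CV to ENR. The Serpinb8 region scored 12, 15 and 6 for H3K27ac in CV, 9, 4 and 9 in ENR and 13, 16 and 14 in EN, while its ATAC ratio was the largest. The Slco1b2 region scored 8, 5 and 6 in CV, 1, 7 and 6 in ENR and 6, 6 and 4 in EN. Others of the 8 had higher values outside CV. The Bnc1 region scored 2, 1 and 3 in CV, then 7, 7 and 19 (ENR) and 22, 9 and 7 (EN). Its log2 difference was 1.91 to ENR (adjusted p = 0.11) and 2.09 to EN (adjusted p = 0.034, called). The Tmem38b region scored 2, 6 and 6 in CV, then 16, 15 and 15 (ENR) and 13, 13 and 9 (EN), with 1.63 to ENR (adjusted p = 0.13), and its CV libraries lay below all others. The 51 regions in which every EN library exceeded every ENR library in ATAC had a median H3K27ac difference of 0.97 from CV to EN, and the 125 with the opposite order had -0.03.

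H3K4me3, tested in 1233 of the regions, rose from CV to ENR in 1 (0.0811%, against 0.0270% of all) and fell in 2 (0.162%, against 1.10%). From CV to EN it rose in 44 (3.57%, against 2.75%) and fell in 0 (against 2.15%), with a median of 0.33 against 0.09. From ENR to EN it rose in 61 (4.95%, against 5.48%) and fell in 2 (0.162%, against 0.700%). The rise to ENR was 16.4 kb from Capn10, a calpain gene, where the scores were 7, 9 and 7 in CV, 45, 38 and 37 in ENR and 19, 31 and 30 in EN (log2 difference 2.24, adjusted p = 0.011). Both falls, near Kif26b and Me2, were from a score of 1 in all 3 CV libraries to 0 in all 3 ENR libraries. Both regions scored 1 in all 3 EN libraries, a rise called from ENR to EN. Some rises from CV to EN were also of 1 score unit. Near Dnajc1 and at 1 of the Bnc2 regions, all 3 CV libraries scored 0 and all 3 EN libraries 1. The number of such rises was not counted. Scores of this mark were low, with medians over the chosen regions of 1 to 3 in single libraries.

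H3K27me3 was called in almost none of these regions. From CV to ENR it rose in 0 (against 0.532% of all) and fell in 2 (0.159%, against 0.207%) by limma, and 154 (12.2%, against 10.6% of all) had an unadjusted p under 0.05. The median was -0.51 against -0.32 over all regions, and became -0.18 after quantile normalization and -0.31 with a pseudocount of 5. From CV to EN it rose in 0 (against 0.140%) and fell in 0 (against 0.388%), with 70 regions (5.56%, against 9.08% of all) at an unadjusted p under 0.05. From ENR to EN it rose in 0 (against 0% of all) and fell in 0 (against 0.0127%), with 156 regions (12.4%, against 11.6% of all) at an unadjusted p under 0.05. The Dusp27 region, whose window with the HNF4 match is shown above, fell from 33, 24 and 18 in CV to 4, 1 and 4 in ENR, with 7, 2 and 15 in EN (log2 difference -2.78, adjusted p = 0.033). A region 128 kb from Dnajc1 fell from 55, 23 and 19 to 4, 9 and 1 (-2.69, adjusted p = 0.032). Neither fall was called when any CV library (replicate 1, 2 or 3) or ENR replicate 4 was left out.

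**Figure D3:**
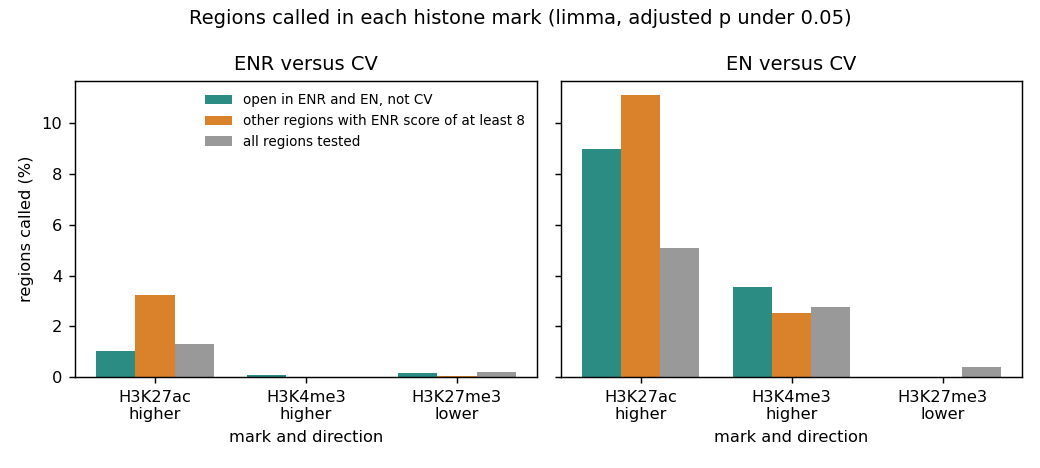
Share of regions (%) called higher in H3K27ac and H3K4me3 and lower in H3K27me3 (limma, adjusted p under 0.05), in ENR against CV on the left and EN against CV on the right. In EN, H3K27ac was higher in 8.97% of the chosen regions, in 11.1% of the other regions with an ENR score of at least 8 and in 5.07% of all.

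Each region was assigned to the protein-coding gene with the nearest start site, which gave 1090 genes. Of these, 518 were found in the RNA table by symbol and 24 by a synonym, and 537, nearest to 606 regions, were tested. The table holds only transcripts whose protein the study had quantified, so genes such as Id2, Hes1 and Bmp2 were not tested. Library totals were 5630951 to 8859744 expected counts. From CV to ENR, 238 of the 537 genes were higher (44.3%, against 30.6% of all genes tested) and 141 lower (26.3%, against 31.2%) by edgeR at an adjusted p under 0.01. From CV to EN, 297 were higher (55.3%, against 35.9%) and 141 lower (26.3%, against 42.3%). From ENR to EN, 276 were higher (51.4%, against 36.5%) and 145 lower (27%, against 38.2%). The median log2 differences were 0.20, 0.45 and 0.30, against 0.00, -0.08 and -0.01 over all genes.

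The direction of these counts depends on the scaling. With the counts scaled to spike-in transcripts, which moved the median of all transcripts by 0.09, -0.42 and -0.51, the genes higher and lower were 167 and 41 from CV to ENR (31.1% and 7.64%, against 17.3% and 11.4% of all genes). They were 180 and 162 from CV to EN (33.5% and 30.2%, against 16% and 47.0%), and 118 and 184 from ENR to EN (22.0% and 34.3%, against 11.9% and 46.6%). The medians were then 0.30, 0.02 and -0.20, against 0.10, -0.50 and -0.52 over all genes, so they stayed above those of all genes in each comparison. With limma on TPM the numbers were 183 and 179 (34.1% and 33.3%, against 21.1% and 41.3% of all genes), 245 and 206 (45.6% and 38.4%, against 24.9% and 55.0%), and 237 and 172 (44.1% and 32.0%, against 29.6% and 44.8%). These had medians of 0.04, 0.09 and 0.12 against -0.14, -0.35 and -0.14.

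Few regions lay at gene starts, and the difference of their genes from the others was not tested. Of the 30 tested genes with a chosen region within 500 bp of their start, 22 were higher and 2 lower in ENR than in CV (73.3% and 6.67%, against 30.6% and 31.2% of all genes), with a median of 1.02. In EN, 23 were higher and 2 lower than in CV (76.7% and 6.67%, against 35.9% and 42.3%), with a median of 2.19. For the 401 genes within 50 kb, 183 and 101 were higher and lower in ENR than in CV (45.6% and 25.2%, against 30.6% and 31.2%). In EN the numbers were 243 and 94 (60.6% and 23.4%, against 35.9% and 42.3%). Genes nearest to regions opened further in EN were higher in 36.5% and lower in 31.2% from CV to ENR, and those nearest to regions open in CV in 21.6% and 50.0%. From CV to EN the shares were 55.8% and 26.7% for the regions opened further in EN, close to the 55.3% and 26.3% of the chosen regions, and 29.2% and 53.1% for those open in CV, so the EN shares were not particular to the chosen regions. Genes of the regions with an HNF4 match were higher in EN than in CV in 43 of 65 cases (66.2%) and lower in 12, and the genes of the others in 265 of 488 (54.3%) and lower in 131.

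**Figure D4:**
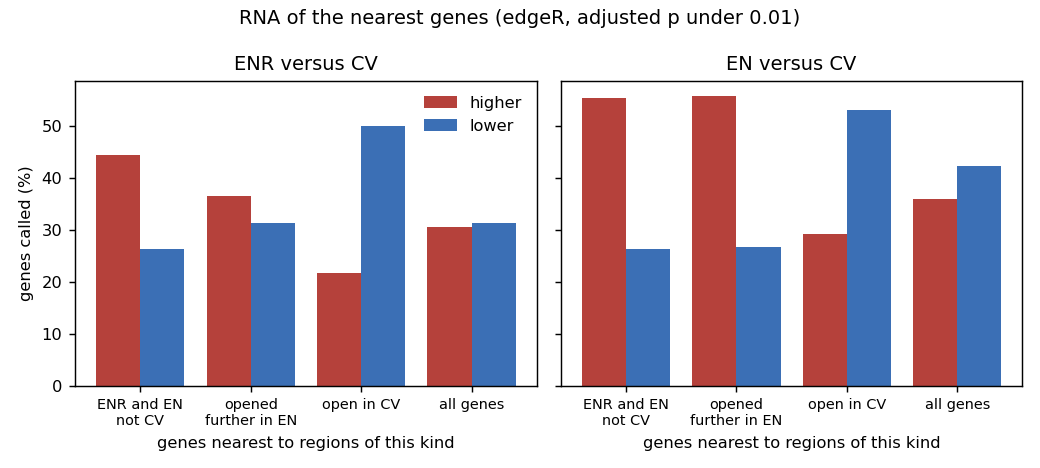
Share of nearest genes (%) called higher or lower in RNA (edgeR, adjusted p under 0.01), in ENR against CV on the left and EN against CV on the right, for 3 sets of regions and all genes. Genes nearest to the regions open in ENR and EN were higher in 44.3% and 55.3%, and the split in EN narrowed from 297 and 141 genes to 180 and 162 with spike-in scaling.

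Of 42 enterocyte genes listed, the longest of the lists, 13 were nearest to a chosen region, beside 3 of 12 drug genes and 4 of 26 BMP genes. Over all genes, 1090 of the 17844 nearest to any region were nearest to a chosen one. Of the 12 enterocyte genes tested, 8 were higher and 3 lower in ENR than in CV, and 11 were higher and 1 lower in EN than in CV. Of all 40 list genes tested, 24 and 11 changed in the same order in ENR, and 37 and 2 in EN, so the 12 moved as their list did. RNA is given as CPM, the count of a gene scaled to the size of its library after TMM normalization.

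Several of them encode digestive enzymes of the brush border. Treh, for trehalase, has a chosen region over its start site, which scored 6, 8, 6 and 9 in CV, 29, 31, 19 and 25 in ENR and 20, 29, 24 and 23 in EN. Its RNA was 2.40 to 3.13 CPM in the CV libraries, 47.1 to 62.5 in those of ENR and 485 to 540 in those of EN (log2 difference 4.37, adjusted p = 2.8e-13, and 7.53, adjusted p = 1.3e-17). The ENR and EN libraries of the region overlapped, while the RNA means were 56.5 ± 6.66 and 509 ± 23.0 CPM (SD, n = 4) without overlap. Sis, for sucrase-isomaltase, had 1148 to 1333 CPM in CV, 4258 to 4636 in ENR and 26888 to 29273 in EN, with its chosen region 449 kb away. Mme rose from 30.2 to 38.5 CPM in CV to 259 to 320 in ENR and 2585 to 2916 in EN. Enpep, for glutamyl aminopeptidase, was lower in ENR than in CV (190 ± 10.6 against 263 ± 10.0 CPM) and higher in EN (1326 ± 8.54).

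Genes of lipid handling and transport were next to chosen regions as well. Apoa1, for the main protein of HDL, has a region 2.23 kb from its start that scored 2, 2, 2 and 3 in CV, 11, 9, 13 and 10 in ENR and 15, 15, 16 and 15 in EN. Its RNA was 85.9 to 96.2 CPM in the CV libraries, 408 to 496 in those of ENR and 3278 to 4071 in those of EN. Abcg5, for a sterol exporter, had 161 ± 2.21 CPM in CV, 142 ± 4.37 in ENR and 711 ± 24.8 in EN, and Dgat2, for the last step of triglyceride synthesis, had 129 ± 2.69, 51.1 ± 5.02 and 228 ± 15.3. Both were lower in ENR than in CV although their regions were more open there. Cyp3a11, a drug-metabolizing cytochrome P450, had 116 ± 3.36 CPM in CV, 327 ± 44.4 in ENR and 4866 ± 506 in EN.

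Genes of transcription and signalling are also on the enterocyte list. Klf4, for a factor of differentiated epithelium, rose from 8.65 ± 1.32 CPM in CV to 13.9 ± 2.34 in ENR and 24.5 ± 2.38 in EN. Ptk6, for a kinase of differentiating epithelium, has a region at its start that scored 1, 4, 2 and 1 in CV, 24, 16, 14 and 15 in ENR and 21, 25, 14 and 29 in EN, and its RNA had means of 5.32 ± 0.529, 7.18 ± 0.644 and 28.6 ± 1.51 CPM. Cdx2, the homeobox gene of intestinal identity, has a region at its start with a mean ATAC score of 73.0 ± 11.4 in CV, 177 ± 6.98 in ENR and 123 ± 13.6 in EN, but its RNA had 232 ± 3.36, 215 ± 2.89 and 212 ± 12.3 CPM. The log2 difference of Cdx2 from CV to ENR was -0.11 (adjusted p = 0.024, not called), and it was -0.13 to EN (adjusted p = 0.0067). Maf, nearest to 3 chosen regions, was not tested.

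**Figure D5:**
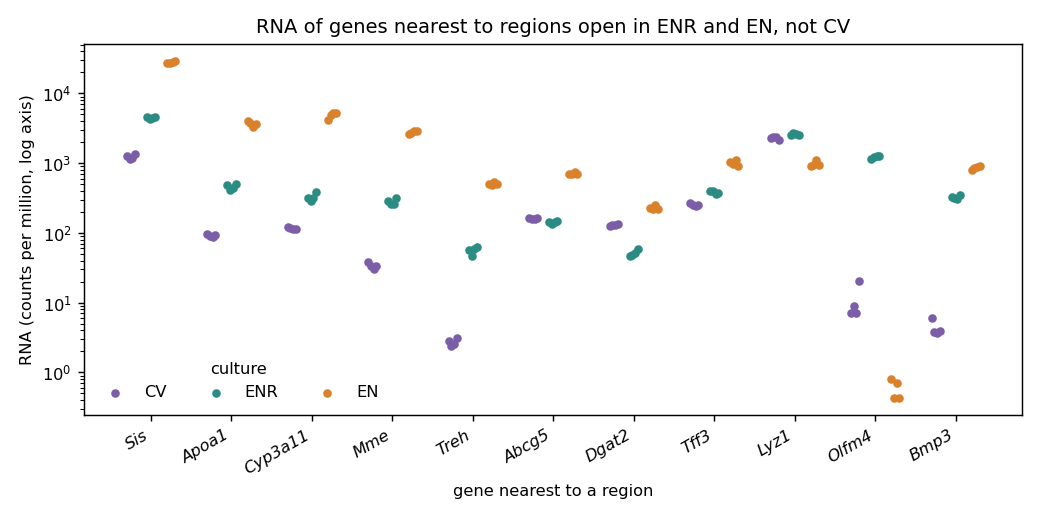
RNA in CPM (log axis) of 11 genes nearest to chosen regions, with each point a library, in CV, ENR and EN. Most rise from CV to ENR to EN, Abcg5 and Dgat2 are lowest in ENR, Lyz1 is lowest in EN, and Olfm4 is high only in ENR among the 3 cultures.

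Of the 17 stem cell and Wnt target genes listed, only Olfm4 was nearest to a chosen region. Olfm4, for a glycoprotein secreted by crypt base cells, had 7.14 to 20.5 CPM in CV, 1139 to 1274 in ENR and 0.428 to 0.804 in EN. The log2 difference was 6.78 from CV to ENR (adjusted p = 1.3e-13) and -10.94 from ENR to EN (adjusted p = 9e-15). The chosen region 39.7 kb away scored 26, 24, 20 and 12 in CV, 54, 52, 57 and 51 in ENR and 52, 72, 80 and 72 in EN, with overlap between ENR and EN, while the RNA was under 1 CPM in EN. The stem cell list as a whole had 7 genes higher and 5 lower of 13 tested from CV to ENR, and 13 lower of 13 from CV to EN.

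Markers of the other cell types were few. The goblet cell peptide gene Tff3, with a region 84 bp from its start, had 253 ± 10.7 CPM in CV, 385 ± 20.1 in ENR and 1005 ± 96.0 in EN. Lyz1, the lysozyme gene of Paneth cells, had 2289 ± 111, 2579 ± 65.9 and 974 ± 84.0. The enteroendocrine convertase gene Pcsk1, nearest to 2 chosen regions, had 29.0 ± 1.18, 22.6 ± 3.01 and 70.8 ± 5.49, lower in ENR than in CV and highest in EN. Its fall in ENR was not that of its list, of which 6 of 7 tested genes were higher in ENR than in CV and 1 lower. In EN, 7 of the 7 were higher than in CV. Neurod1, also of the enteroendocrine list, was not tested. None of 13 tuft genes and none of 10 genes of the major histocompatibility complex and interferon response was nearest to a chosen region. Vim, listed as a marker of non-epithelial cells, had 2.67 to 3.37 CPM in CV, 7.17 to 8.66 in ENR and 20.5 to 26.1 in EN, a low level that rose in the same order as the enterocyte genes, and its part in them was not tested. Of the 4 tested genes of that list, 2 were higher and 1 lower in ENR than in CV. Counts of Lyz1, Cyp3a11, Acat3, Tubb2b and Abcb1a may be shared with near-identical family members and are uncertain.

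The BMP pathway, which opposes Wnt signalling as cells leave the crypt, had 4 of 26 listed genes beside chosen regions. Id2, a BMP target gene for an inhibitor of basic helix-loop-helix factors, was the nearest gene of 6 regions, more than any other gene, all upstream at 73.7 to 282 kb. The region at 156 kb scored 3, 1, 2 and 0 in CV, 12, 19, 13 and 15 in ENR and 15, 16, 11 and 9 in EN, the largest ratio of the 6 at 6.30. Bmp2, for a ligand, had 2 regions, of which that at 71038 bp scored 9, 8, 6 and 11 in CV, 34, 29, 35 and 34 in ENR and 47, 31, 36 and 53 in EN. Bmp3, for an antagonist of the family, was the only one of these 4 genes tested. It had 3.71 to 5.93 CPM in CV, 307 to 348 in ENR and 803 to 904 in EN (log2 differences 6.23, adjusted p = 1.1e-15, and 7.64, adjusted p = 5.7e-18). Its intronic region, 1.45 kb from the start, scored 5, 4, 3 and 9 in CV, 13, 13, 20 and 17 in ENR and 16, 13, 17 and 19 in EN, and H3K27ac there rose by 1.90 from CV to EN (adjusted p = 0.003). The BMP list as a whole did not rise with Bmp3. Of its 16 tested genes, 5 were higher and 5 lower in ENR than in CV, and 6 higher and 7 lower in EN than in CV. Of the Notch list, Jag1 (2 regions) was not called from CV to ENR (log2 difference -0.30, adjusted p = 0.055), and Hes1 was not tested. Of the drug list, Aldh1a1, a retinal dehydrogenase gene, rose from 422 ± 20.8 to 622 ± 52.9 and 5799 ± 245 CPM, while Abcb1a, an efflux pump gene, fell from 725 ± 4.61 to 270 ± 4.71 and had 623 ± 22.1 in EN.

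Most genes, 951, were nearest to exactly 1 chosen region, and 139 to 2 or more. After Id2 came Crim1 with 5 regions, then 3100002H09Rik, Cdh9, Dyrk2 and Kcnh1 with 4, and Bcas1, Bid, Bnc2 and Ctnnb1 with 3, of which Bcas1, Bid and Ctnnb1 were tested. Bid, for a mediator of cell death, fell from 34.4 ± 1.29 CPM in CV to 20.8 ± 1.06 in ENR and 21.3 ± 1.19 in EN. Ctnnb1, which encodes beta-catenin, the Wnt effector, had 1433 ± 35.8, 1351 ± 33.4 and 1604 ± 21.0 CPM, a rise of 0.16 from CV to EN that became -0.26 with spike-in scaling and -0.15 with limma on TPM. One of the Bnc2 regions rose in H3K27ac from 2, 8 and 3 in CV to 23, 15 and 28 in ENR (log2 difference 2.23, adjusted p = 0.019).

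Among all 537 tested genes, the largest rises from CV to ENR without overlap were in Ctrb1, Olfm4, Bmp3, Bcas1, Treh, Pla2g10, F2 and Capn13. Ctrb1, for the digestive protease precursor chymotrypsinogen, had 4 reads over the 4 CV libraries, 505 in ENR and 1751 in EN, ratios of 131 (95% counting interval 50.8 to 483) and 407 (158 to 1494) after scaling. Bcas1 had 7, 178 and 652 reads, and Pla2g10, for a secreted phospholipase, 2, 45 and 46. F2, for prothrombin, had 0, 9 and 19 reads. Against a floor of 3 reads over the CV libraries, the ratios were 3.11 in ENR and 5.88 in EN. They take the ENR and EN counts as exact and are not lower limits. Capn13 was highest in ENR, with 1.33 ± 0.104 CPM in CV, 16.6 ± 2.31 in ENR and 3.61 ± 0.582 in EN, and the chosen region in its intron also scored lower in EN than in ENR, with means of 5.25 and 8.25 against 1.5 in CV.

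The largest falls were in Cryz, Tubb2b, Cpm, Mtmr7, Plcb1, Acat3, Phospho1 and Stom, each with a chosen region 1.66 to 57.8 kb away that was more open in ENR. Tubb2b, for a tubulin of immature cells, fell from 68.6 ± 3.67 CPM in CV to 14.3 ± 0.492 in ENR and 2.31 ± 0.981 in EN. Cpm, for a membrane carboxypeptidase, fell from 31.6 ± 0.644 to 8.19 ± 0.698 and 8.17 ± 1.16. Stom, a membrane scaffold gene, fell from 185 ± 8.64 to 58.1 ± 3.32 in ENR and had 179 ± 9.96 in EN, where its difference from CV was not called by edgeR (-0.05, adjusted p = 0.36). That difference was -0.47 with spike-in scaling (adjusted p = 0.013, not called), and limma on TPM called it as lower in EN.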

How the data were processed

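The ATAC-seq, histone ChIPmentation, Hnf4g ChIPmentation and RNA-seq tables deposited by the authors were used. Paired-end reads had been aligned to mm9 with BWA allowing 1 mismatch, filtered for mapping quality and cleared of PCR duplicates with Picard, and peaks called with MACS2 2.0, per the submitters' notes and the study's methods. The deposited ATAC and histone values are scores, read counts per region of the union of peaks that the authors normalized between libraries and rounded. The method of that normalization is not given in the sources used here, and depth before it is unknown. H3K27me3 scores cover extended regions, per the file headers. The deposited Hnf4g values are raw counts per region. For RNA, the authors gave expected counts and TPM per transcript from kallisto 0.43.0 (the version in the submitters' notes), with an index of transcripts whose protein was quantified plus spike-ins. Copy number columns were not used, and 0 columns of per-sample values were left unmapped.

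The 1260 regions, the gene lists and the motifs were chosen with earlier results of these data known. Sequence and gene positions came from NCBIM37 (mm9) and GENCODE vM1, and gene synonyms from RefSeq. Histone scores were compared as log2(score + 1) with limma 3.58.1 (trend, regions above 0 in at least 3 libraries, Benjamini-Hochberg adjusted p under 0.05), with all scored libraries of a mark in 1 fit. Expected counts were rounded, the transcript with the highest mean count represented a gene, and genes counted in 4 or more libraries were tested with the quasi-likelihood test of edgeR 4.0.16 with TMM (adjusted p under 0.01). Histone libraries outside the deposited table were not analysed here. Intervals of Hnf4g shares are exact Clopper-Pearson intervals at 95%, and intervals and floors of 3 counts cover counting error only. R 4.3.3, Python 3.11.15, numpy 2.4.6, pandas 2.3.3 and scipy 1.17.1 were used, and the fits were tested on simulated data.

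Named regions were the 8 with the largest ratio of ENR to CV, up to 3 called rises and 3 called falls per mark without overlap, the 3 with the most Hnf4g reads in EN and 3 on each side of each threshold. Named genes were the 10 nearest to the most regions, the 8 largest called rises and 8 largest called falls from CV to ENR without overlap, and every listed marker gene nearest to a region. The Bnc2 and Bmp3 values of H3K27ac and the last 3 sequences were chosen after their values were seen. Some items that the rule names are not reported here. Alternatives were other filters, pseudocounts, thresholds and scalings, DESeq2 1.42.0, a replicate block and leaving out each library. Replicate numbers were not taken to pair the samples.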

Additional observations from a re-analysis of the deposited data

Results flagged for a closer look

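In 16 of 278 groups of 4 libraries (5.76%), 1 library lay far from the other 3 by Dixon's gap-to-range ratio at the 95% level. Chance flags about 1 in 20 groups. In RNA, these were Bmp3 in CV replicate 1 (5.93 CPM, others 3.71 to 3.86), Ctnnb1 in EN replicate 3 (1635, others 1591 to 1597) and Enpep in ENR replicate 2 (174, others 195 to 196). Olfm4 in CV replicate 4 (20.5, others 7.14 to 8.94) and Plcb1 in CV replicate 4 (16.1, others 19.4 to 19.7) were the other RNA cases.

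Among ATAC scores, the ENR libraries that stood apart were replicate 1 near Bnc1 (38, others 32 to 33), replicate 3 near Tmem38b (106, others 67 to 71), replicate 1 near Banf2 (40, others 56 to 59) and replicate 4 near Id2 (23, others 30 to 31). At the 2 regions near Bmp2 they were replicate 2 (29, others 34 to 35) and replicate 1 (24, others 29 to 30). In CV, replicate 4 stood apart near Gm5745 (3, others 2), Apoa1 (3, others 2) and Capn10 (24, others 14). In EN, replicate 3 near Apoa1 (16, others 15) and replicate 4 near Mme (36, others 22 to 24) did. Several of these gaps are of 1 to 2 score units.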

How the results depend on the processing

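Counts of histone calls at the chosen regions depended on the settings. H3K27ac rises from CV to ENR (13) became 0 with no trend and 0 at the stricter threshold, and those from CV to EN (113) became 23 and 22. H3K4me3 rises to ENR (1) became 2 with no trend and 0 at the stricter threshold, and those to EN (44) became 0 at the stricter threshold. H3K27me3 falls to ENR (2) became 0 with no trend, with quantile normalization and at the stricter threshold. The causes were not tested.

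Leaving out 1 library gave 2 to 15 H3K27ac rises to ENR (2 without ENR replicate 1 or 4, 4 without EN replicate 3, 5 without ENR replicate 2, 6 and 7 without EN replicates 4 and 2, and 8 without CV replicate 3) and 45 to 99 to EN (45, 49 and 51 without EN replicates 4, 2 and 3). H3K4me3 rises ranged from 0 (without ENR replicate 4) to 8 (without EN replicate 1) to ENR, with 2 without CV replicate 3 or 4 or ENR replicate 1, 3 without ENR replicate 2, and 4 and 5 without EN replicates 2 and 4. To EN they ranged from 24 (without CV replicate 2 or ENR replicate 4) through 27 (without ENR replicate 2) to 72 (without EN replicate 1). H3K27me3 falls to ENR ranged from 0 (without any CV replicate or ENR replicate 4) to 6 (without ENR replicate 2), with 1 without ENR replicate 3 and 4 without EN replicate 2. Falls to EN (0) ranged from 0 to 1, with 1 without EN replicate 2.

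With a replicate block, H3K27ac rises were 0 to ENR and 0 to EN, H3K4me3 rises 0 and 20, and H3K27me3 falls 0 and 0. RNA calls with the replicate block numbered 370 from CV to ENR, 438 from CV to EN and 415 from ENR to EN. Same-numbered libraries had mean correlations of deviations of -0.003 (H3K27ac), 0.05 (H3K4me3), -0.008 (H3K27me3) and 0.013 (RNA). Other pairs had 0.001, -0.017, 0.002 and -0.004 in the same order. These few pairs cannot show whether same-numbered samples share a culture or a batch.

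For RNA, spike-in scaling gave 208 changed and 41 lower genes from CV to ENR. It gave 180 higher from CV to EN and 118 higher from ENR to EN. Within 50 kb and with the main scaling, 94 genes were lower from ENR to EN (23.4%, against 38.2% of all genes). Without 1 library, changed genes numbered 352 to 387 (225 to 240 higher, 126 to 147 lower) from CV to ENR, 426 to 439 (288 to 298, 138 to 142) from CV to EN and 408 to 424 (266 to 277, 138 to 147) from ENR to EN. Ctnnb1 reversed from CV to EN to -0.26 with spike-in scaling and -0.15 with limma on TPM, and from ENR to EN to -0.27 with spike-in scaling, as did Mtmr7 to -0.10. Of the values of named genes under the alternatives, 1994 kept direction and call, 43 lost and 11 gained the call. Of those of named regions, 197 kept it and 73 lost it.

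With only regions with a mean ENR score of at least 8 as the total, the Hnf4g share was 1.62% in CV, 2.21% in ENR and 1.76% in EN. In windows of 200 bases, shares were HNF4 9.13%, HNF1 4.05%, CDX 12.3%, TCF/LEF 3.25%, SOX 2.86%, FOXA 5.08%, AP-1 10.4%, ETS 9.84%, SP 4.29%, KLF 5.40%, CTCF 2.30%, E-box 15.7%, RBPJ 4.21% and TEAD 7.38%. The fit with all listed libraries of a mark could not be run, since the scores used cover only 3 of them per culture.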
